A study of Mus musculus with 13 samples.

Results

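The plasma levels of the mature arms of 2 microRNA hairpins of blood cells were examined: miR-223-3p and miR-223-5p, and miR-142a-3p and miR-142a-5p (mmu-miR-223-3p, mmu-miR-223-5p, mmu-miR-142a-3p and mmu-miR-142a-5p in the table). The members were chosen by name, as both arms of the mouse hairpins Mir223 and Mir142, and they are 4 of the 1907 mature miRNAs in the count table. All 4 passed the filter on low counts that left 368 miRNAs for testing. Small RNA was sequenced from 1 plasma sample of each of 13 male mice in 4 groups. Givinostat, an inhibitor of histone deacetylases, was given by gavage at 37.5 mg/kg on 5 days per week for 15 weeks to mdx mice (n = 3, animals 31, 34 and 35), and vehicle mdx mice received 0.5% methylcellulose on the same schedule (n = 4, animals 40 to 43). Naive mdx mice (n = 3, animals 36, 37 and 39) and naive wt mice (n = 3, animals 86, 89 and 95) had no treatment. Mice of the Givinostat, vehicle and naive mdx groups were C57BL10ScSn-Dmdmdx/J, which lack full-length dystrophin because of a nonsense mutation in the Dmd gene, and naive wt mice were C57BL/10J. The strain field of the labels gives C57BL/10J for every sample, so the mdx strain was taken from the treatment description. The animals were bought at 7 to 8 weeks of age, and all groups went through muscle function tests. Plasma of all 4 groups was collected later, at the same time point, after the 15 weeks of treatment.

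The libraries held 1364813 to 1437031 counts in the Givinostat group, 1283646 to 1522871 in the vehicle group, 1167161 to 1556118 in the naive mdx group and 1446195 to 2899315 in the naive wt group. The liver miRNA miR-122-5p took 2.96 to 6.19% of the counts in the Givinostat group, 2.98 to 16.1% in the vehicle group, 1.37 to 10.6% in the naive mdx group and 37.6 to 64.6% in the naive wt group. Levels are given as CPM, counts relative to library size, after scaling by the trimmed mean of M values (TMM), which sets library sizes from the bulk of the miRNAs. A level in plasma does not tell fewer cells of a type from less miRNA released per cell.

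miR-223 is made mainly in cells of the myeloid lineage, above all in neutrophils, where it restrains granulocyte production and activation. miR-142 is made in nearly all cells of the blood lineage, including lymphocytes, myeloid cells and platelets, and is little made outside it. In dystrophic muscle, leukocytes enter the damaged fibres, and miRNAs of both blood cells and muscle fibres can be found in plasma, in vesicles or bound to proteins.

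Each mature sequence is shown because the 4 members were counted as separate RNAs, and its bases 2 to 8, the seed that pairs with messenger RNAs, are in capitals (5′ to 3′, RefSeq, GRCm38.p6).
miR-223-3p: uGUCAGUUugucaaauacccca
miR-223-5p: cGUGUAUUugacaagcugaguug
miR-142a-3p: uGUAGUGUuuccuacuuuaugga
miR-142a-5p: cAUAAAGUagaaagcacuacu
miR-142b: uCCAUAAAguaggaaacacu
The 4 seeds differ from each other, and among the 1623 of 1907 miRNAs of the table with a sequence in the RefSeq table no other miRNA carried any of them. miR-142b, which is annotated on the opposite strand of the same locus, is shown because it pairs with miR-142a-3p without a mismatch over all its 20 bases. It had 0 counts in each of the 13 libraries, which allows up to 1.03 to 2.57 CPM per library (3 counts, counting error only), whereas miR-142a-3p had 1859 in all. The strand setting of the counting is not given in the sources used here.

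The positions of the arms within their hairpins are shown next, because the arm ratios below compare the 2 capitalised stretches of each (5′ to 3′).
Mir223: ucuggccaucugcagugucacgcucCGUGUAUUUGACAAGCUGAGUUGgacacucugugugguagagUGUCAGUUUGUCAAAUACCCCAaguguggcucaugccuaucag
Mir142: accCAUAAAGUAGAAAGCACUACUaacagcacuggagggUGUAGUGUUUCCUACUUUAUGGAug
Mir223 lies on the plus strand at chrX:96242817-96242926, within an exon of the non-coding gene F630028O10Rik (GENCODE M21). Its nearest protein-coding gene, 4277 bases away, is Vsig4, which encodes a complement receptor of tissue macrophages. Mir142 lies on the plus strand at chr11:87756864-87756927, inside the non-coding host gene Mir142hg and outside its annotated exons. The nearest protein-coding gene of Mir142 is Tspoap1, 3614 bases away.

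miR-142a-5p was the most abundant member, at rank 40 of the 368 tested miRNAs by mean level over the 13 mice (3743 CPM). miR-223-5p (rank 110, 269 CPM), miR-223-3p (rank 117, 223 CPM) and miR-142a-3p (rank 152, 88.5 CPM) were lower. miR-142a-5p also varied little among mice of 1 group: its pooled within-group SD was 0.23 on the log2 CPM scale, and 6.52% of the tested miRNAs had an SD as small. The within-group SD was 0.35 for miR-223-5p, 0.37 for miR-223-3p and 0.46 for miR-142a-3p, which was covered by 56 to 301 counts per library.

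**Figure D1:**
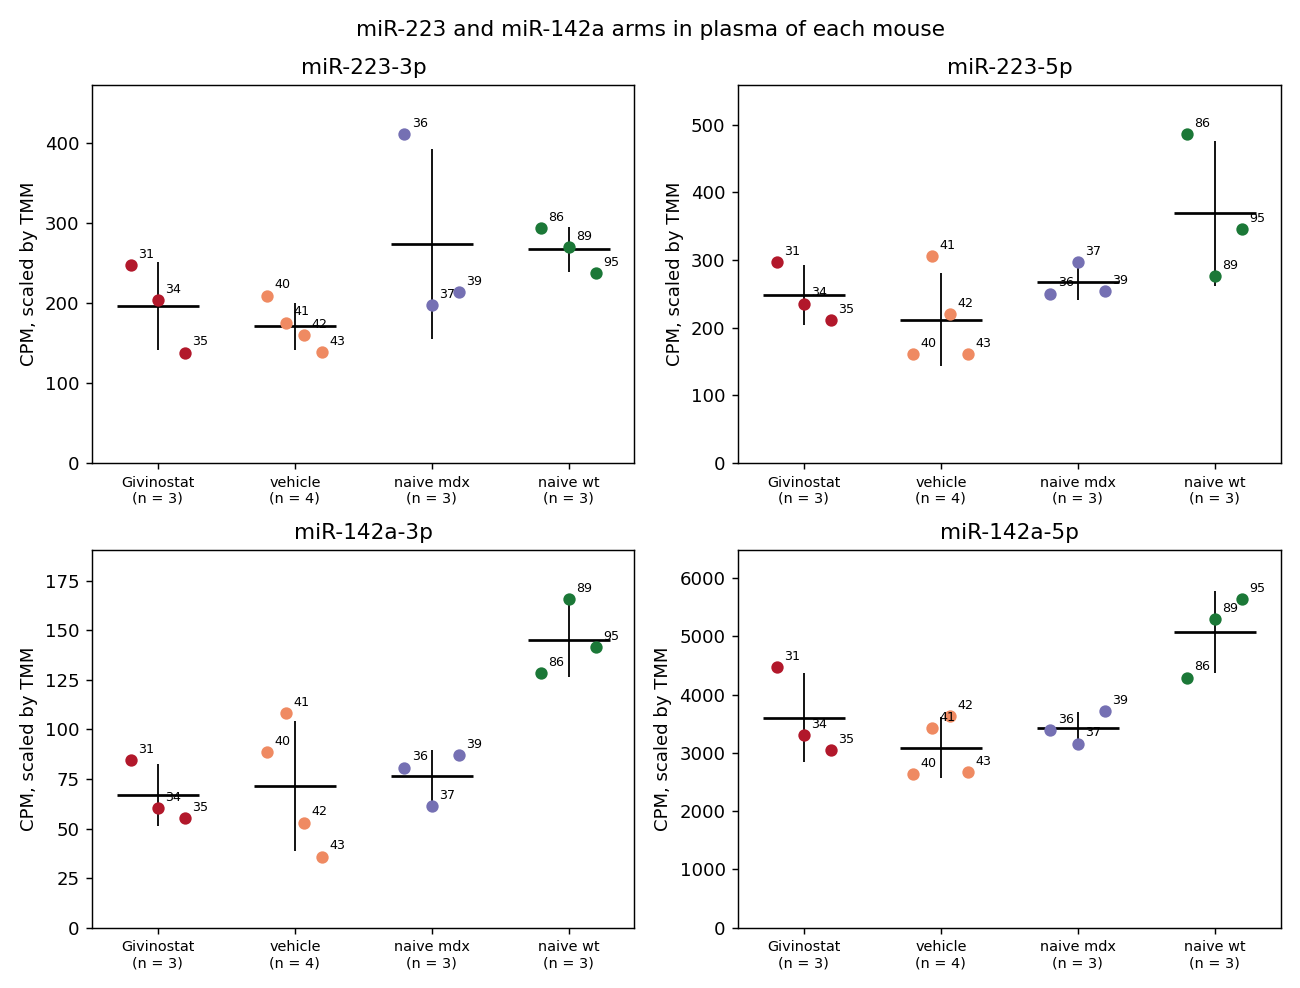
TMM-scaled CPM (y axis, from 0) of each member in each mouse, by group (x axis), with 1 numbered point per mouse, a horizontal bar at the group mean and a vertical line of ± 1 SD. Both miR-142a arms are lower in all 3 naive mdx mice than in any naive wt mouse, and naive mdx mouse 36 stands at 411 CPM of miR-223-3p.

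The first comparison, naive mdx against naive wt, sets dystrophin-deficient mice against mice with dystrophin. Their strain names also differ in substrain, which cannot be told apart from dystrophin deficiency here. miR-142a-3p was lower in naive mdx plasma, and miR-142a-5p had groups that did not overlap but missed the threshold, while miR-223-3p did not differ detectably. miR-142a-3p had 80.7, 61.5 and 86.9 CPM in naive mdx mice 36, 37 and 39, against 128, 166 and 142 CPM in naive wt mice 86, 89 and 95. The groups did not overlap, and the means were 76.4 ± 13.2 CPM in naive mdx and 145 ± 18.9 CPM in naive wt (SD, n = 3 each). The naive mdx level was 0.526 times the naive wt level (95% CI 0.316 to 0.877; log2 fold change -0.93, SE 0.35; edgeR quasi-likelihood test, Benjamini-Hochberg adjusted p = 0.0392 over 368 miRNAs). It was the 1 member of 4 called, and in this comparison 43.5% of all tested miRNAs were called, 16.6% as lower. The call was lost when naive mdx 36 (edgeR adjusted p = 0.0597), naive mdx 37 (0.120), vehicle 40 (0.0646), naive wt 89 (0.102) or naive wt 95 (0.0727) was left out, with log2 fold changes of -0.93, -0.79, -0.81, -0.82 and -0.93 in that order.

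miR-142a-5p, from the other arm of the same hairpin, had 3387, 3160 and 3709 CPM in naive mdx mice 36, 37 and 39, against 4289, 5295 and 5638 CPM in naive wt mice 86, 89 and 95. These groups did not overlap either. The miRNAs whose groups did not overlap made up 57.6% of those tested in this comparison, and both miR-142a arms were among them. The means were 3419 ± 276 CPM in naive mdx and 5074 ± 701 CPM in naive wt (SD, n = 3 each), a ratio of 0.674 (95% CI 0.481 to 0.944; log2 fold change -0.57, SE 0.23), which did not pass after adjustment (edgeR, adjusted p = 0.0540). It passed with naive wt mouse 86 left out (log2 fold change -0.71, edgeR adjusted p = 0.0361), and under RLE scaling (-0.61, adjusted p = 0.0442) and DESeq2 (-0.60, adjusted p = 0.0446).

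The miR-223 arms overlapped between the genotypes. miR-223-3p had 411, 197 and 213 CPM in naive mdx mice 36, 37 and 39, against 294, 270 and 238 CPM in naive wt mice 86, 89 and 95. Mouse 36 was thus the highest of the 6 and the other naive mdx mice were the lowest. The log2 fold change was 0.035 (SE 0.30, 95% CI -0.60 to 0.67; edgeR adjusted p = 0.937), and it was -0.34 without mouse 36 (adjusted p = 0.282). The library of mouse 36 had the fewest counts of the 13 and also the highest level of the lymphocyte miRNA miR-150-5p, at 3766 CPM; their part in the miR-223-3p value was not tested.

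miR-223-5p had 250, 298 and 254 CPM in naive mdx mice 36, 37 and 39, against 486, 276 and 346 CPM in naive wt mice 86, 89 and 95. It was low in naive mdx mice 36 and 39, with mouse 37 above naive wt mouse 89. The log2 fold change of -0.47 (SE 0.29, 95% CI -1.08 to 0.15) did not pass the test (edgeR adjusted p = 0.190).

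The scaling of the libraries shifted all 4 members alike. The median log2 fold change of the 368 miRNAs between naive mdx and naive wt was 0.035 under TMM, 0.43 when counts were divided by library totals and -0.20 under upper-quartile scaling. Relative to that median, miR-142a-3p stood at -0.96 under TMM and between -1.001 and -0.94 under 4 other scalings. miR-142a-5p stood at -0.60 and between -0.64 and -0.60 under the same 4. miR-223-3p, by contrast, stayed at the median, with differences of -0.0030 to 0.031, so its own sign turned with the scaling (0.035 under TMM, -0.20 under upper-quartile scaling). Against library totals the call of miR-142a-3p was lost (log2 fold change -0.57, edgeR adjusted p = 0.334).

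**Figure D2:**
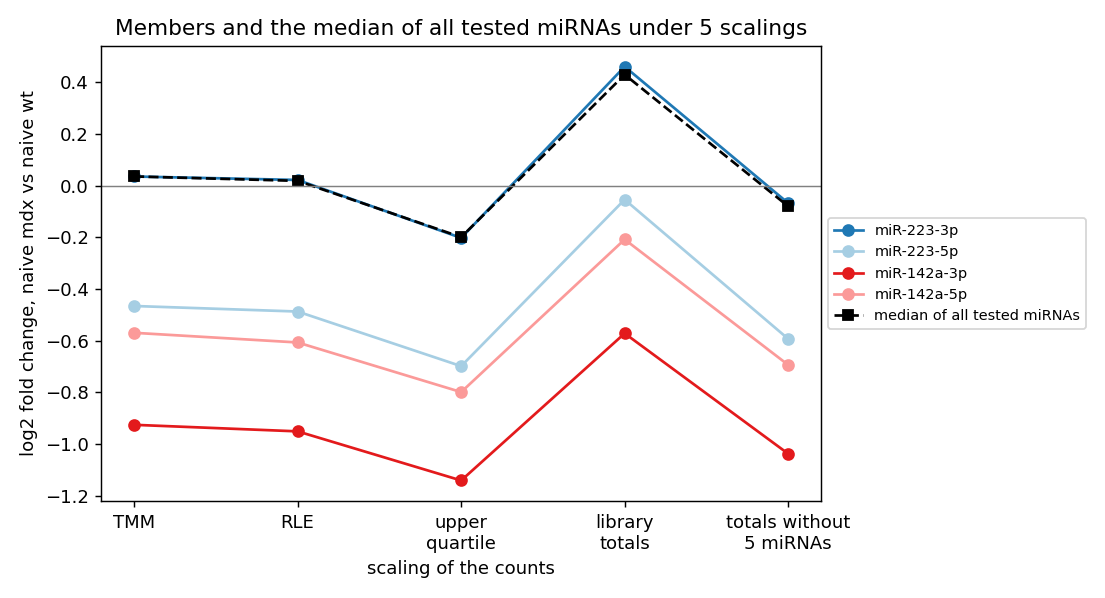
Log2 fold change between naive mdx and naive wt mice (y axis) of the 4 members and of the median of all tested miRNAs under 5 scalings of the counts (x axis); the lines join the same miRNA. The miR-223-3p line runs along the median, which moves between -0.20 and 0.43, and both miR-142a arms lie below it under each scaling shown.

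The vehicle and Givinostat mdx mice were also set against naive wt mice. The comparisons share the 3 naive wt animals, so they are not independent of the first one. miR-142a-3p was lower in each, at 0.491 times the naive wt level in vehicle mice (log2 fold change -1.03, SE 0.32, edgeR adjusted p = 0.0161) and 0.461 times in Givinostat mice (-1.12, SE 0.35, adjusted p = 0.0216). Its highest treated value, 108 CPM in vehicle mouse 41, was below the lowest naive wt value of 128 CPM. The share of all miRNAs called lower was 23.1% for vehicle and 11.7% for Givinostat mice against naive wt, and 47.3% and 34.2% were called in either direction.

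In vehicle mice 3 of the 4 members were lower than in naive wt. Beside miR-142a-3p these were miR-142a-5p, at 3091 ± 516 CPM (n = 4) against 5074 ± 701 CPM (n = 3; log2 fold change -0.72, SE 0.21, edgeR adjusted p = 0.0119), and miR-223-5p, at 212 ± 69.0 CPM (n = 4) against 369 ± 107 CPM (n = 3; -0.80, SE 0.27, edgeR adjusted p = 0.0230). miR-223-3p missed the threshold (-0.65, SE 0.28, edgeR adjusted p = 0.0661), although its vehicle values of 139 to 209 CPM were all below the naive wt values of 238 to 294 CPM; 52.2% of all miRNAs had no overlap here, miR-223-3p and both miR-142a arms included. In Givinostat mice the log2 fold changes against naive wt were -0.49 for miR-142a-5p (adjusted p = 0.106), -0.57 for miR-223-5p (adjusted p = 0.139) and -0.44 for miR-223-3p (adjusted p = 0.260) in edgeR, past the threshold for none of them. The groups did not overlap for miR-142a-3p alone of the 4, as for 53.8% of all miRNAs.

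With library totals or in limma none of these 4 calls against naive wt was kept. The log2 ratio of red cell miR-451a over miR-23a-3p was -2.13 to -1.67 in vehicle, -1.54 to -0.69 in Givinostat and -0.11 to 0.11 in naive wt mice. With it as a covariate the 4 calls were lost as well, at 0.66 for miR-142a-3p, -0.037 for miR-142a-5p and -0.22 for miR-223-5p in vehicle mice and -0.19 for miR-142a-3p in Givinostat mice, and this ratio and the group cannot be told apart here.

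These calls also moved with single libraries. For vehicle against naive wt, miR-142a-3p was lost without vehicle 43 (log2 fold change -0.67, edgeR adjusted p = 0.0726) or naive wt 89 (-0.91, 0.0545). miR-142a-5p was lost without vehicle 40 (-0.46), vehicle 43 (-0.51), naive wt 89 (-0.66) or naive wt 95 (-0.58), with edgeR adjusted p of 0.0582 to 0.111. miR-223-5p was lost without vehicle 40 (-0.53), vehicle 43 (-0.56), naive wt 86 (-0.56) or naive wt 95 (-0.78), with edgeR adjusted p of 0.0521 to 0.141. Without naive mdx 36, whose values enter only the shared spread and scaling, miR-223-3p passed (-0.61, edgeR adjusted p = 0.0260). For Givinostat against naive wt, miR-142a-3p was lost without Givinostat 34 (-1.04, edgeR adjusted p = 0.0666), Givinostat 35 (-1.04, 0.0695) or naive wt 89 (-1.01, 0.0623).

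The comparison of Givinostat with vehicle asks what the drug changed in mdx mice. No member was called in either direction by edgeR, where 0.272% of all tested miRNAs were called. None had an unadjusted p under 0.05, as 6.79% of all miRNAs had, and none was called by DESeq2 or limma. miR-142a-5p had 4467, 3302 and 3044 CPM in Givinostat mice 31, 34 and 35, against 2630, 3428, 3634 and 2670 CPM in vehicle mice 40, 41, 42 and 43. Givinostat mouse 31 was the highest of the 7, and the other values interleaved. The log2 fold change was 0.22 (SE 0.21, 95% CI of the ratio 0.853 to 1.60; edgeR adjusted p = 0.831), so a change of more than 1.60-fold upward lay outside the interval.

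miR-142a-3p had 84.7, 60.3 and 55.4 CPM in Givinostat mice 31, 34 and 35, against 88.6, 108, 53.1 and 35.8 CPM in vehicle mice 40, 41, 42 and 43. The vehicle mice were spread on both sides of all Givinostat mice, at high values in 40 and 41 and low values in 42 and 43. The log2 fold change was -0.091 (SE 0.33, 95% CI of the ratio 0.579 to 1.52; edgeR adjusted p = 0.990).

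miR-223-3p had 247, 204 and 138 CPM in Givinostat mice 31, 34 and 35, against 209, 176, 160 and 139 CPM in vehicle mice 40, 41, 42 and 43. Givinostat mice held both the highest and the lowest of these values. miR-223-5p had 297, 236 and 211 CPM in the same Givinostat mice, against 160, 307, 221 and 161 CPM in the same vehicle mice. Here vehicle mouse 41 was the highest and vehicle mice 40 and 43 were the lowest. The log2 fold changes were 0.20 for miR-223-3p (SE 0.28, 95% CI of the ratio 0.759 to 1.74; edgeR adjusted p = 0.885) and 0.23 for miR-223-5p (SE 0.27, 0.787 to 1.74; adjusted p = 0.861). Intervals of this width leave the direction of all 4 members undetermined at this number of mice.

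The comparison of vehicle with naive mdx mice sets gavage of methylcellulose against no treatment. By edgeR 0% of the 368 miRNAs were called in either direction, 17 (4.62%) had an unadjusted p under 0.05, and DESeq2 and limma called 0. Of the members, miR-223-3p alone had an unadjusted p under 0.05. It averaged 171 ± 29.7 CPM in vehicle mice (n = 4) and 274 ± 119 CPM in naive mdx mice (SD, n = 3; log2 fold change -0.68, SE 0.28, edgeR adjusted p = 0.801). The naive mdx mean was carried by mouse 36, and without it the log2 fold change was -0.27. The other members had log2 fold changes of -0.33 for miR-223-5p, -0.100 for miR-142a-3p and -0.15 for miR-142a-5p.

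Givinostat mice set against naive mdx mice gave no called member either. By edgeR 0% of the 368 miRNAs were called, 48 (13%) had an unadjusted p under 0.05 with no member among them, and DESeq2 called 2 and limma 0. The log2 fold changes were -0.48 for miR-223-3p (edgeR adjusted p = 0.506), -0.11 for miR-223-5p, -0.19 for miR-142a-3p and 0.076 for miR-142a-5p. The 3 mdx groups were thus not told apart by any member, and the order of the group means differed between members: miR-223-3p was highest in naive mdx and lowest in vehicle mice, and miR-142a-5p was highest in Givinostat and lowest in vehicle mice.

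**Figure D3:**
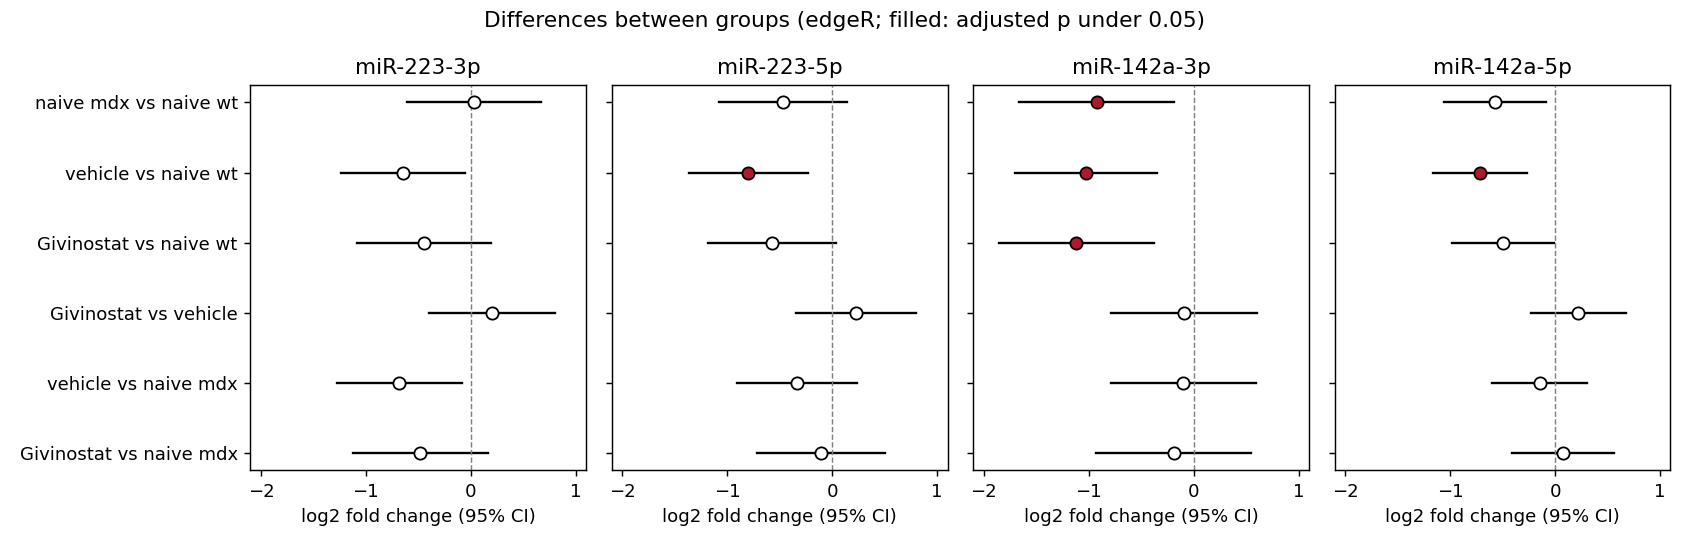
Log2 fold change (x axis) of each member in 6 comparisons (y axis), first group over second, with 95% intervals of the edgeR fit; filled points have an adjusted p under 0.05. The filled points are miR-142a-3p against naive wt in all 3 mdx groups, and miR-142a-5p and miR-223-5p in vehicle against naive wt.

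The 2 arms of a hairpin are cut from the same precursor. Their ratio, like any ratio of 2 miRNAs within 1 library, does not depend on library scaling. Ratios are of reads, and the efficiency of adapter ligation can differ between sequences. The 2 hairpins differed in this ratio. miR-142a-5p exceeded miR-142a-3p in every library, by 29.6- to 73.8-fold, and the mean log2 ratio of 3p to 5p was -5.48. Of 95 hairpins with both arms tested, 54 had more of the 5p arm, and 17 leaned further to it than miR-142a did. The miR-223 arms were nearly balanced, with a mean log2 ratio of -0.28, the 8th smallest in size of the 95. miR-223-3p exceeded miR-223-5p in naive mdx mouse 36 (log2 ratio 0.72) and vehicle mouse 40 (0.38) alone, and miR-223-5p was the larger in the other 11.

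The miR-142a arm ratio was compared between groups. The log2 ratio of 3p to 5p was -5.39, -5.68 and -5.41 in naive mdx mice 36, 37 and 39, against -5.06, -5.00 and -5.31 in naive wt mice 86, 89 and 95. All naive mdx values were below all naive wt values, with a difference of -0.37 (SE 0.13; exact two-sided permutation p = 0.100, the smallest that 3 against 3 mice can give; adjusted p = 0.343 over 21 ratio tests). In size this difference ranked 65 of the 95 hairpins, from the largest down. In Givinostat mice the ratio was -5.72, -5.77 and -5.77, whereas vehicle mice fell on both sides, at -4.89 and -4.98 in mice 40 and 41 and -6.09 and -6.21 in mice 42 and 43. The means of the Givinostat and vehicle mice differed by -0.21 (SE 0.35; exact permutation p = 0.629). The miR-142a-3p counts behind these ratios were 67 to 142 in Givinostat and 56 to 147 in vehicle libraries. For miR-223 the arm ratio overlapped between groups in all 3 comparisons tested.

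miR-223-3p relative to miR-142a-3p sets the granulocyte-rich miRNA against the general leukocyte one. The log2 ratio was 2.34, 1.68 and 1.29 in naive mdx mice 36, 37 and 39, against 1.19, 0.70 and 0.75 in naive wt mice 86, 89 and 95. Every naive mdx value was above every naive wt value, by 0.89 on average (SE 0.34; exact two-sided permutation p = 0.100, the smallest possible; adjusted p = 0.343). With miR-142a-5p in its place, an alternative chosen after seeing the data, the log2 ratio was -3.04, -3.9998 and -4.12 in naive mdx against -3.86, -4.29 and -4.57 in naive wt, and the groups overlapped. Between Givinostat and vehicle mice the ratio to miR-142a-3p overlapped, with means of 1.53 and 1.37.

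miR-223-3p was next set against miR-451a, the main miRNA of red blood cells. The log2 ratio was -4.43, -4.77 and -4.61 in Givinostat mice 31, 34 and 35, against -3.995, -4.06, -4.03 and -4.09 in vehicle mice 40 to 43. All Givinostat values were below the narrow range of the vehicle values, by -0.56 (SE 0.10; exact two-sided permutation p = 0.0571, the smallest that 3 against 4 can give; adjusted p = 0.343). miR-451a itself had 5322, 5548 and 3391 CPM in Givinostat mice 31, 34 and 35, against 3343, 2942, 2613 and 2363 CPM in vehicle mice 40 to 43. It did not overlap either, and did not pass the test (log2 fold change 0.76, SE 0.22, edgeR adjusted p = 0.255). The ratio was -2.54, -3.49 and -3.75 in naive mdx mice, against -4.33, -4.48 and -4.35 in naive wt mice, a difference of 1.13 (exact permutation p = 0.100). Vehicle mice, which had no drug, were in turn below all naive mdx mice, by -0.78 (SE 0.37; exact permutation p = 0.0571, adjusted p = 0.343). Between naive mdx and naive wt mice, miR-451a itself was lower in naive mdx (log2 fold change -1.17, edgeR adjusted p = 0.00106). The ratio of miR-142a-3p to miR-451a overlapped between these genotypes (means -5.03 in naive mdx and -5.27 in naive wt). With miR-142a-5p in place of miR-142a-3p, an alternative chosen after seeing the data and outside the adjusted ratio tests, the genotypes did not overlap. The log2 ratio was 0.37 to 0.51 in naive mdx against -0.47 to 0.22 in naive wt, a difference of 0.61 (exact permutation p = 0.100, the smallest possible).

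miR-223-3p was also set against miR-150-5p, a miRNA of mature lymphocytes. The log2 ratio was -2.78, -2.05 and -2.64 in Givinostat mice 31, 34 and 35, against -3.43, -3.23, -2.78 and -3.27 in vehicle mice 40 to 43. The groups barely failed to overlap, since vehicle mouse 42 and Givinostat mouse 31 were equal after rounding. The difference was 0.69 (SE 0.27; exact permutation p = 0.0571, adjusted p = 0.343), and miR-150-5p itself did not pass (log2 fold change -0.48, edgeR adjusted p = 0.823). No ratio passed after adjustment over the 21 tests.

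**Figure D4:**
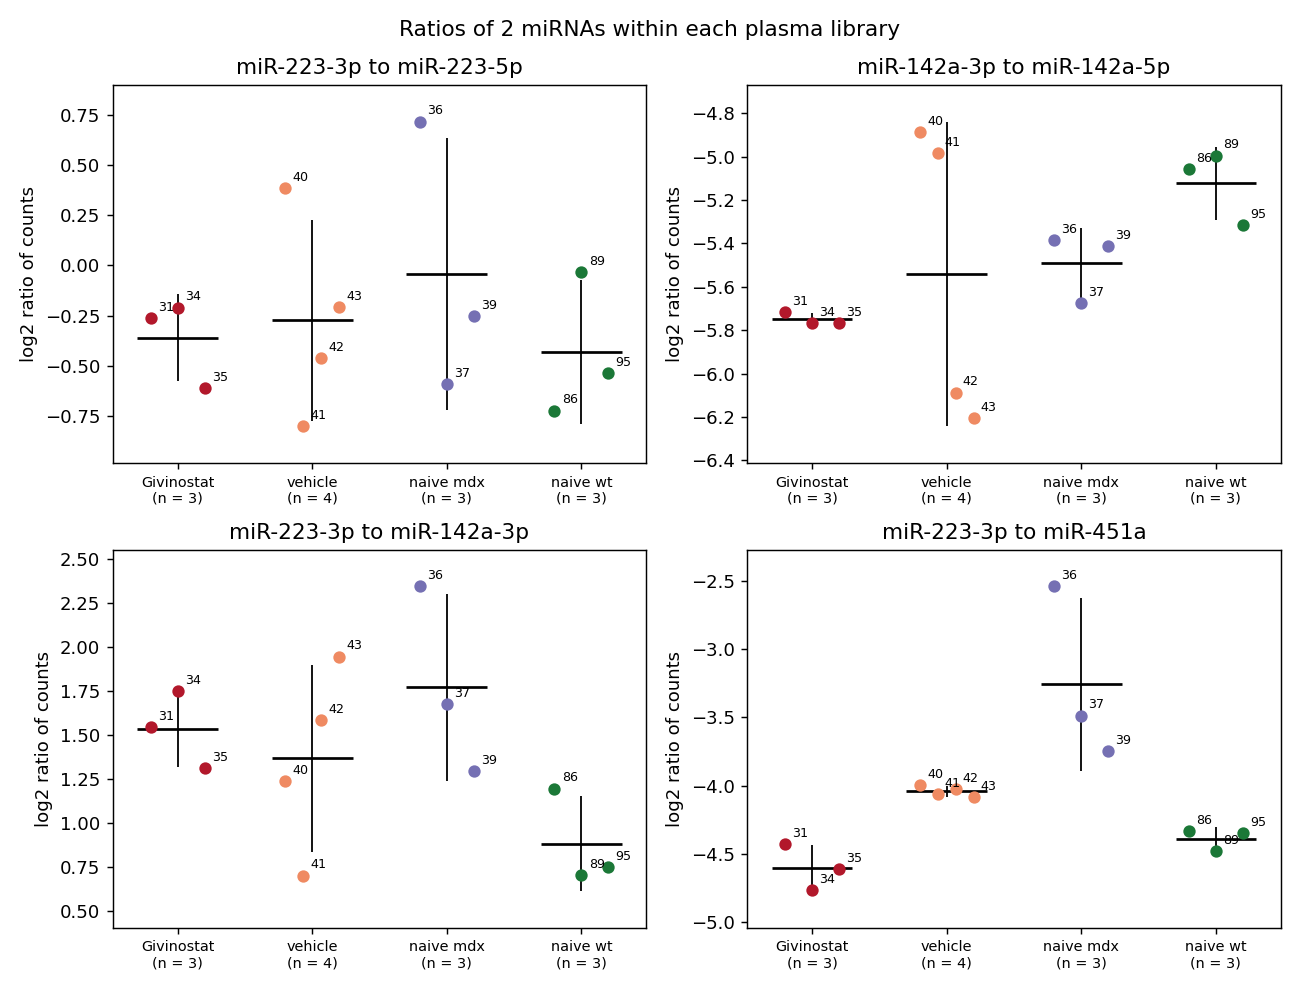
Log2 ratio of 2 miRNAs within each library (y axis, counts plus 0.5) by group (x axis), with numbered mice as points, a horizontal bar at the mean and a vertical line of ± 1 SD. The miR-142a arm ratio overlaps between Givinostat and vehicle mice. miR-223-3p to miR-451a lies lower in Givinostat than in vehicle mice (exact permutation p = 0.0571, adjusted p = 0.343). This p is the smallest that the number of mice allows, so the test could not pass. In edgeR the log2 fold change was 0.20 for miR-223-3p and 0.76 for miR-451a, neither called.

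Other blood miRNAs were read beside the members, without a test of any list. Of 6 tested miRNAs of myeloid cells and inflammation, 2 were lower, 1 was higher and 3 did not pass in naive mdx against naive wt, with a median log2 fold change of -0.53 beside 0.035 for all miRNAs and -0.52 for the 4 members. miR-146a-5p, which dampens NF-kB signalling, was lower (log2 fold change -0.85, edgeR adjusted p = 0.00558), and miR-146b-5p was lower too (-0.97, adjusted p = 0.0121). The 1 called higher was miR-147-3p (log2 fold change 1.33, edgeR adjusted p = 0.0147). miR-155-5p, a miRNA of activated leukocytes, did not pass (-0.16, edgeR adjusted p = 0.681). Of 5 lymphocyte miRNAs 2 were higher and 3 did not pass, with a median of -0.10. The higher were miR-29a-3p (log2 fold change 1.42) and miR-181b-5p (0.73), while miR-150-5p (-0.298), miR-342-3p (-0.346) and miR-181a-5p (-0.101) did not pass. Of 6 platelet miRNAs 2 were higher, 1 was lower and 3 did not pass, with a median of -0.044. The higher were miR-22-3p (2.696), which the paper lists as raised in dystrophic mice, and miR-24-3p (1.296). miR-21a-5p (-0.559, not passed) was counted in both the platelet and the myeloid list. Whether the higher miRNAs came from lymphocytes or platelets was not tested. Over all tested miRNAs 26.9% were higher and 16.6% lower.

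Of 6 red blood cell miRNAs 4 were lower and 2 higher in naive mdx than in naive wt, with a median of -1.01. The higher were miR-486a-5p (log2 fold change 2.21) and miR-486b-5p (1.46). miR-451a over miR-23a-3p, used as a measure of red cell content, had log2 values of -2.68 to -1.80 in naive mdx and -0.11 to 0.11 in naive wt mice. Its means were -2.20 and 0.0064, a wider gap than the log2 fold change of -1.17 of miR-451a itself. Part of the gap thus lies in miR-23a-3p, and the ratio does not measure red cells alone. The summed level of the list was 7511 to 13098 CPM in naive mdx against 8106 to 10104 CPM in naive wt. With that ratio as a covariate, which itself differs by genotype, the log2 fold change of miR-142a-3p was 1.08 (edgeR adjusted p = 0.914) and that of miR-223-3p was 1.57. This ratio and genotype cannot be told apart in these 6 mice. Of the muscle list 5 of 6 were higher, with a summed level of 206461 to 420523 CPM in naive mdx against 9624 to 17539 CPM in naive wt. Of the liver list 4 of 4 were lower, at 13937 to 95916 CPM in naive mdx against 316532 to 892525 CPM in naive wt, and the part of these shifts in the member values was not tested beyond the scalings given.

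In Givinostat against vehicle mice, and in vehicle against naive mdx mice, no miRNA of any of these lists passed in edgeR. miR-146b-5p came nearest of the myeloid list in Givinostat against vehicle mice. It had 4448, 3428 and 2817 CPM in Givinostat mice 31, 34 and 35, against 1961, 2019, 2195 and 2042 CPM in vehicle mice 40 to 43. The groups did not overlap (log2 fold change 0.80, SE 0.27, edgeR adjusted p = 0.310), as for 7.61% of all miRNAs and for no member.

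The miRNAs whose profile over the 13 libraries lay closest to a member were found by the root mean square of the difference in centred log2 CPM, as a description only, since all share library, depth and scaling. For miR-142a-3p they were miR-103-3p (0.22), miR-17-5p (0.24), miR-20a-5p (0.24), miR-106b-5p (0.29) and miR-370-3p (0.30), against a median of 0.73 over 364 miRNAs. For miR-223-3p they were miR-433-3p (0.28), miR-106b-5p (0.31), miR-543-3p (0.31), miR-329-3p (0.31) and miR-92a-3p (0.32), against a median of 0.65. The members were not each other's nearest. The miR-223 arms were 0.42 apart, which placed miR-223-5p at rank 31 of 367 from miR-223-3p, and the miR-142a arms were 0.41 apart. The closest pair of members was miR-223-5p and miR-142a-5p, from different hairpins, at 0.30 and rank 6.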

How the data were processed

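Plasma RNA was made into small RNA libraries by adapter ligation, size selected and sequenced on an Illumina NextSeq. The authors trimmed and collapsed the reads, mapped them to GRCm38 with Bowtie (no mismatch up to 25 nt), and deposited raw counts per mature miRNA, summed over isomiRs (miRBase 21). The deposited log2 values equal log2 of the count plus a constant for each library, with no value for counts of 3 or fewer. Counts of all 13 libraries were fitted in edgeR 4.0.16 (quasi-likelihood, TMM, filterByExpr with a minimum count of 10, 1 mean per group) in R 4.3.3, with Benjamini-Hochberg adjustment over 368 miRNAs and a threshold of 0.05; the fit was tested on simulated data. DESeq2 1.42.0 and limma 3.58.1 on the log2 values (pseudocounts 1 and 5) were alternatives, with other scalings, filters, a red cell covariate and each library left out. Ratios used counts plus 0.5 and exact permutation tests in SciPy 1.17.1. The named miRNAs were the members, the first 3 of each list and those in ratios, the 5 nearest to miR-223-3p and to miR-142a-3p, and miR-142b. miR-147-3p, miR-29a-3p, miR-181b-5p, miR-22-3p, miR-486a-5p and miR-486b-5p were named as well, as list members called higher in naive mdx. miR-21a-5p was named because the myeloid and platelet lists share it. Members and lists were chosen with earlier results of these data known. Each mouse gave 1 library, and no within-group pair agreed within sampling noise (chi-square per degree of freedom at least 104.5).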

Additional observations from a re-analysis of the deposited data

How the results depend on the processing

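Over 24 member results (4 miRNAs in 6 comparisons) and 24 alternatives each, 501 of 576 values kept their direction and side of the threshold, 38 lost a call, 10 gained one and 27 changed sign, none of these past the threshold. Most of the 24 results were not called in the main fit, so the 501 are mainly values that stayed uncalled. Against naive wt, miR-142a-3p kept its call in 15 of 24 alternatives for naive mdx, 18 for vehicle and 17 for Givinostat mice. For vehicle mice, miR-142a-5p and miR-223-5p kept theirs in 15 each. No paired analysis was possible because the groups share no animal numbers. Counting error alone gave a coefficient of variation of 5.76 to 13.4% for miR-142a-3p, the member with the fewest counts, beside a within-group SD of 0.46 on the log2 scale.

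Values that changed are given as log2 fold changes, and the cause was not tested. For naive mdx against naive wt, miR-142a-5p passed under RLE scaling (-0.61), upper-quartile scaling (-0.80), library totals without 5 abundant liver and muscle miRNAs (-0.69), a mean of at least 10 CPM (-0.60) and DESeq2 (-0.60). miR-142a-3p lost its call against library totals (-0.57) and in limma on the deposited log2 values (-0.54 and -0.53 with pseudocounts of 1 and 5). The median of all 368 miRNAs was also raised there, from 0.035 under TMM to 0.43 with library totals. In limma it was 0.35 and 0.29 with those pseudocounts. miR-223-3p turned negative under upper-quartile scaling (-0.20), library totals without those 5 miRNAs (-0.068) and a fit of the 2 groups alone (-0.081). Upper-quartile scaling also turned miR-142a-3p in Givinostat against vehicle (0.017) and miR-223-5p in Givinostat against naive mdx (0.044; 0.0057 with no filter). miR-142a-5p in Givinostat against naive mdx was -0.13 with library totals and -0.17 in limma with either pseudocount.

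Against naive wt, the 3 calls in vehicle mice and the call of miR-142a-3p in Givinostat mice were lost with library totals, in limma and with the red cell covariate. With library totals vehicle mice gave -0.90 for miR-142a-3p (edgeR adjusted p = 0.0976), -0.58 for miR-142a-5p (0.154) and -0.58 for miR-223-5p (0.164), and Givinostat mice gave -0.98 for miR-142a-3p (0.122). With no filter, vehicle mice lost miR-142a-5p (-0.68) and miR-223-5p (-0.74). miR-223-3p in vehicle mice passed under upper-quartile scaling (-0.83), library totals without the 5 miRNAs (-0.75) and a fit of the 2 groups alone (-0.65).

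With the red cell ratio as a covariate, naive mdx against naive wt gave 0.23 for miR-223-5p, 1.08 for miR-142a-3p and 0.21 for miR-142a-5p. Givinostat against vehicle gave -0.44 for miR-223-3p, -0.044 for miR-223-5p and -0.099 for miR-142a-5p. Vehicle against naive wt gave 0.68 for miR-223-3p and 0.66 for miR-142a-3p, with -0.037 for miR-142a-5p and -0.22 for miR-223-5p. Givinostat against naive wt gave 0.24 for miR-223-3p and -0.19 for miR-142a-3p, and Givinostat against naive mdx gave -0.35 for miR-142a-5p. The number of miRNAs called in naive mdx against naive wt was 160 by edgeR, 1 with this covariate, 174 by DESeq2 and 121 by limma with a pseudocount of 1; 61 were called lower under TMM, 96 under upper-quartile scaling and 23 with library totals.

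With each library left out in turn, naive mdx against naive wt ranged from -0.34 to 0.22 for miR-223-3p, -1.06 to -0.79 for miR-142a-3p and -0.71 to -0.46 for miR-142a-5p. Givinostat against vehicle ranged from -0.029 to 0.34 for miR-223-3p and -0.33 to 0.13 for miR-142a-3p, vehicle against naive mdx from -0.33 to 0.14 for miR-142a-3p, and Givinostat against naive mdx from -0.097 to 0.17 for miR-142a-5p. Differences in log2 ratio ranged, for Givinostat against vehicle, from -0.26 to 0.13 between the miR-223 arms, -0.43 to 0.0085 between the miR-142a arms and -0.054 to 0.36 for miR-223-3p to miR-142a-3p. For vehicle against naive mdx they ranged from -0.50 to 0.15 between the miR-223 arms, -0.27 to 0.17 between the miR-142a arms and -1.02 to 0.093 for miR-142a-3p to miR-150-5p, and for naive mdx against naive wt the last ratio ranged from -0.68 to 0.43. With miR-142a-5p in place of miR-142a-3p, chosen after seeing the data, miR-223-3p to miR-142a differed by -0.042 in Givinostat against vehicle and miR-142a to miR-150-5p by 0.13 in naive mdx against naive wt.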
